A study of Mus musculus with 41 samples.

Results

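Sorted mouse testis cells were profiled by RNA-seq in 8 of the 41 samples of the series, 4 with the genotype label wild-type and 4 with Rhox10-null, chosen by assay and genotype label. Both groups were of strain C57BL/6 and both carried an Oct4-eGFP reporter, brought in by a cross to OCT4-eGFP mice. Cells positive for eGFP were collected by fluorescence-activated sorting, each library held the testes of 3 animals, and the labels call the product purified germ cells. The age of the animals and the part of Rhox10 that was deleted are not given in the sources used here. The other samples of the series are CUT&Tag and iSLAM-seq libraries of cultured germline stem cells. P-values below measure the spread between pooled libraries.

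Rhox10 encodes an X-linked homeobox transcription factor of the reproductive homeobox cluster, known for its part in the formation of spermatogonial stem cells. Those stem cells sit on the basement membrane of the seminiferous tubule, depend on GDNF signalling through the receptor RET and its co-receptor GFRA1, and are surrounded by Sertoli cells. Outside the tubule lie peritubular myoid cells, Leydig cells, fibroblast-like stroma, vessels and macrophages. An imperfect sort can carry RNA of any of these.

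The libraries held 6602089 to 8278887 counts, but most of these were of few genes. Gm42418, which overlaps ribosomal RNA, took 58% to 59.4% of a wild-type library and 51% to 52.7% of a library labelled Rhox10-null. Mitochondrially encoded genes took 5.26% to 5.69% and 7.41% to 8.08%. Without the 8 genes above 1% of a library, 1379870 to 2128523 counts were left, and 22377 to 23385 genes were detected in the wild-type libraries against 24746 to 25799 in the others. Neither the Gm42418 share, the mitochondrial share nor the number of detected genes overlapped between the groups. A fit without the genes above 1% of a library is given under the processing, and their part in the results below was not tested otherwise. Among the libraries labelled Rhox10-null, replicate 4 stood apart, with a chi-square per degree of freedom of 4.66 to 5.28 against the other 3 and of 1.42 to 1.62 among those. Wild-type replicate 4 did so less, at 1.81 to 2.97 against 1.24 to 1.7. This measure was taken on raw counts that include Gm42418. Correlations of log2 CPM hardly set Rhox10-null replicate 4 apart (0.9832 to 0.9842, against 0.9839 to 0.985 among the other 3).

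The gene-level counts did not check the genotype. In wild-type samples Rhox10 counts ran from 3 to 10, and in the samples labelled Rhox10-null from 4 to 11 (two-sided exact permutation test, 70 arrangements, p = 0.286), so every direction here is that of the labels.

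Of 13538 genes tested, 5071 (37.5%) passed an adjusted p of 0.05 in edgeR's quasi-likelihood test, 2518 (18.6%) higher and 2553 (18.9%) lower in the libraries labelled Rhox10-null. CPM below are counts relative to TMM-scaled library sizes (edgeR's cpm), and fold changes are relative to that scaling, under which the median gene did not move (log2 fold change 0.00). Plain library totals moved the median by 0.35 and gave 7229 (53.4%) higher and 629 (4.65%) lower. Scaling each library to the summed counts of 32 germline genes moved it by 0.90 and gave 12273 (90.7%) higher and 69 (0.51%) lower. An offset for exon length gave 15.2% higher and 17.5% lower. Directions are therefore relative ones. In bulk RNA, fewer cells of a type and less RNA per cell cannot be told apart. Genes of each list that passed the low-count filter are called tested, and a list is described by its counts against the shares of all tested genes. Over all tested genes, 15.8% were higher and 16.4% lower with no overlap between the groups. Of 522 list members called, 405 kept their call without each library in turn, and those named below that did not are marked where they stand. With DESeq2 121 lost their call, with the length offset 86 lost it and 6 changed sign, and 83 lost it when both replicates 4 were left out. Of the members named below, DESeq2 did not call Bax, Bmpr1a, C1qa, Cst9, Ctss, Cx3cr1, Defb36, Des, Dusp4, Ect2, Elmo1 and Fgfr1. Nor did it call H2-Ab1, Hsd17b1, Inha, Laptm5, Lyz2, Pecam1, Prdm9, Ramp2, Rara, Rec8, Sox18, Tdrd3 and Tie1. The length offset left Bax, Cx3cr1, Defb36, Dnmt3a, Elmo1, Etv1, Fgfr1, Mki67, Pecam1, Sox18, Sparc, Tdrd3, Tet1 and Tet3 without a call. It turned the sign of Cst9 (0.05, not called). Leaving out both replicates 4 removed the calls of Acta2, Bax, Bmpr1a, Cst9, Fgfr1, Hsd17b1, Inha, Lyz2, Piwil4, Prdm9, Ramp2, Rara, Sparc, Tdrd3, Tie1 and Tpm2.

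The defining markers showed RNA of several cell types in both groups. Whether it came from sorted somatic cells was not tested. Per kb of exon, the Sertoli hormone gene Amh had the highest level of the 41 markers examined, at 83.1 ± 5.23 CPM per kb (SD, n = 4) in wild-type libraries and 112.1 ± 4.93 (SD, n = 4) in those labelled Rhox10-null. Dazl, an RNA-binding protein of all germ cells, was at 20.3 ± 1.13 and 9.61 ± 0.521 CPM per kb, and the stromal collagen gene Col1a1 was at 20.8 ± 0.758 and 30.3 ± 1.14. Sertoli and stromal RNA was thus abundant in all 8 libraries of cells labelled as purified germ cells, and Col1a1 exceeded Dazl in the libraries labelled Rhox10-null. The spermatogonial markers were present but lower per kb, with Ret at 6.51 ± 0.295 and 2.26 ± 0.0834 CPM per kb and Zbtb16 at 3.97 ± 0.305 and 1.25 ± 0.193. At the other end, Cnn1 of smooth muscle was at 0.0416 ± 0.0282 and 0.0708 ± 0.0474 CPM per kb, and the macrophage marker Adgre1 was at 0.397 ± 0.094 and 0.503 ± 0.0954. Slc4a1 of red cells had 0 counts in every wild-type library.

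**Figure D1:**
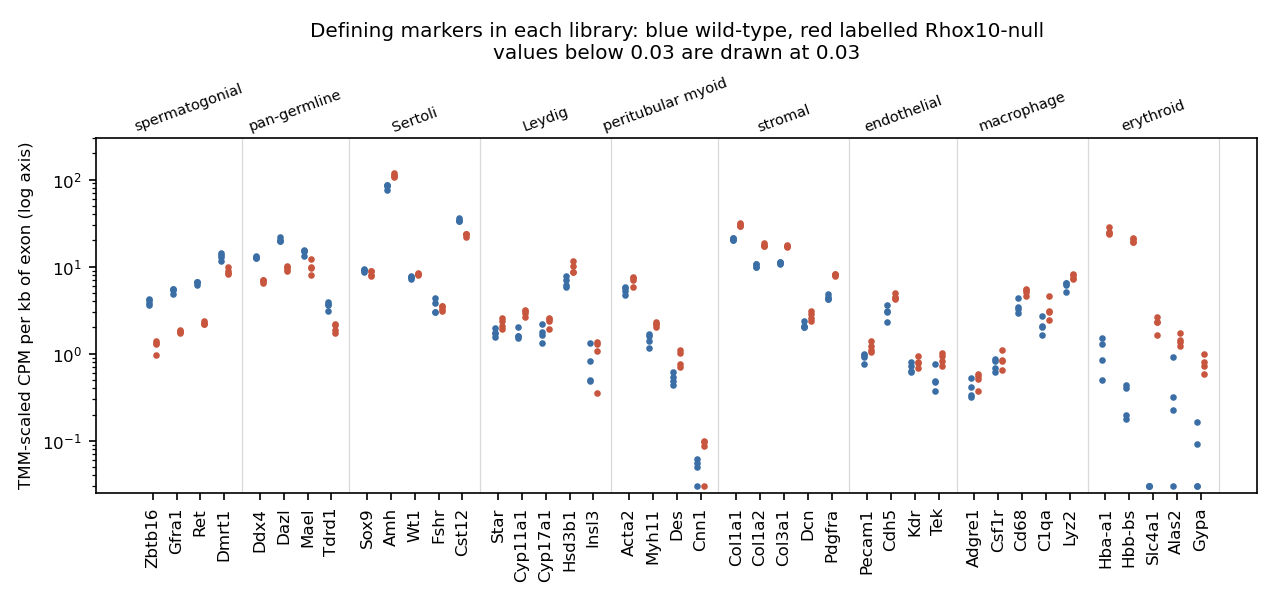
Level of each defining marker in each library, as TMM-scaled CPM per kb of exon on a log axis, with wild-type in blue and libraries labelled Rhox10-null in red. The germline markers are lower in red, Amh and the collagens are higher in red, and the erythroid markers are far higher in red.

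Germline genes fell relative to the other RNA in most lists. Of 30 tested genes of the pan-germline list, expressed across germ cell stages, 28 fell and 0 rose, with a median log2 fold change of -0.83 that became 0.06 when the same list set the scale. Without both replicates 4, 26 fell and 0 rose. The summed level of the list was 163.5 to 177.5 CPM per kb in the wild-type group against 84.4 to 95.5 in the group labelled Rhox10-null. Brdt (log2 fold change 0.28) and Pld6 (-0.56) were the members not called.

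Dazl (GRCm38 chromosome 17, 50279395 to 50293636, minus strand) stood at 83.8, 74.4, 74.9 and 77.6 CPM in the wild-type libraries and 38.4, 38.1, 36 and 34.2 CPM in the libraries labelled Rhox10-null. Every wild-type value was above every other value, and the fitted log2 fold change was -1.08 (SE 0.0571, edgeR adjusted p = 1.31e-19). Slc25a31, the ADP/ATP carrier of germ cells (chromosome 3, 40708855 to 40726096), stood at 21.4, 16.9, 15.4 and 17.8 CPM against 4.91, 7.55, 4.69 and 4.31 CPM. Its groups did not overlap either, and its log2 fold change of -1.75 (SE 0.131, edgeR adjusted p = 1.59e-14) was the largest fall of the list.

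The stem and progenitor list had 17 of 22 tested members lower and 1 higher, with a median of -0.77 that turned to 0.13 under the germline scaling. Zbtb16 (-1.66), Gfra1 (-1.57), Ret (-1.52) and Dmrt1 (-0.56) were among those that fell. The GDNF-responsive transcription factor genes Egr4 (-1.61), Etv4 (-1.60) and Etv5 (-0.68) also fell, whereas the receptor gene Fgfr1 was the member that rose (0.28). Fgfr1 lost its call when Rhox10-null replicate 3, wild-type replicate 2 or wild-type replicate 3 was left out, with log2 fold changes of 0.25, 0.24 and 0.25. It was not called with DESeq2 (0.27), with the length offset (0.16) or without both replicates 4 (0.26) either. Over the wider list of GDNF, FGF and ERK-responsive genes, 10 of 28 tested fell and 7 rose, so the list had no single direction, and its median of -0.02 became 0.33 with library totals and 0.88 under the germline scaling. The receptor gene Fgfr2 (0.50) and the AP-1 gene Junb (0.49) rose, while the cyclin gene Ccnd1 (-1.06) and the phosphatase genes Dusp5 (-0.65) and Dusp6 (-0.35) fell. Their relative Dusp4 (0.75) and Etv1 (0.48), a relative of Etv4 and Etv5, rose instead. Dusp4 was not called without Rhox10-null replicate 2 or wild-type replicate 2 or 3 (0.58 to 0.66), nor with DESeq2 (0.76). Etv1 was not called with the length offset (0.31).

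Of 14 tested genes of differentiating spermatogonia, 9 fell and 2 rose, with a median of -0.59 (0.30 under the germline scaling). The retinoid-binding protein gene Crabp1 (-1.58), the meiotic gatekeeper Stra8 (-1.36), the transcription factor genes Sohlh2 (-1.08) and Sohlh1 (-0.95) and the receptor gene Kit (-0.88) fell. The members that rose were Rec8 (1.17), which encodes a meiotic cohesin, and Prdm9 (0.78), which encodes the methyltransferase that places recombination sites. Rec8 was not called without wild-type replicate 4 (0.93), nor Prdm9 without replicate 1 or 3 of the Rhox10-null group or replicate 1 or 4 of the wild-type group (0.59 to 0.77). The fetal and prospermatogonial list was more even, with 5 of 14 tested lower and 2 higher and a median of -0.15, which became 0.19 with library totals and 0.74 under the germline scaling. Dnd1 (-1.04), Tex101 (-0.91), Trap1a (-0.80), Piwil4 (-0.64) and Cited2 (-0.62) fell, and Klf4 (0.40) and Elmo1 (0.22) rose, the latter not called without replicates 1 or 3 of either group (0.13 to 0.21). Pou5f1, the gene whose promoter drives the sorting reporter, had a log2 fold change of -0.07 and was not called.

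Meiotic chromosome genes fell with the rest of the germline: 20 of 32 tested were lower and 2 higher, with a median of -0.82 (0.08 under the germline scaling). Smc1b, a cohesin subunit of meiotic chromosomes (chromosome 15, 85064689 to 85131964), stood at 23.2, 23, 27 and 25.9 CPM against 9.06, 8.61, 7.57 and 7 CPM. The groups were fully apart, with a log2 fold change of -1.61 (SE 0.0989, edgeR adjusted p = 2.07e-17). Tex11 (-2.43), Mei1 (-1.73) and Rec114 (-1.55), genes of crossover formation or break formation, fell, as did the synaptonemal complex gene Sycp1 (-1.11). The members that rose were Rec8 (1.17) and Smc1a (0.34), the latter encoding the cohesin subunit of all dividing cells. Of 30 genes of spermatocytes and spermatids only 7 passed the filter, and 0 of these were called.

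The piRNA pathway, which silences transposons in germ cells, had 21 of 29 tested members lower and 1 higher (median -0.64, or 0.26 under the germline scaling). Many of its members also stand in the pan-germline list. Tex15, which acts in transposon silencing, stood at 80.6, 67.8, 75.8 and 69.1 CPM against 41.7, 43.8, 39.3 and 36.2 CPM. It fell by 0.86 on the log2 scale (SE 0.0612, edgeR adjusted p = 2.97e-15) and was at 0.04 under the germline scaling. Exd1 (-1.36), Asz1 (-1.26) and Mov10l1 (-1.10) had the largest falls. The member that rose was Tdrd3 (0.29), which was not called without Rhox10-null replicate 1 or 2 or wild-type replicate 2 or 4 (0.19 to 0.27).

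**Figure D2:**
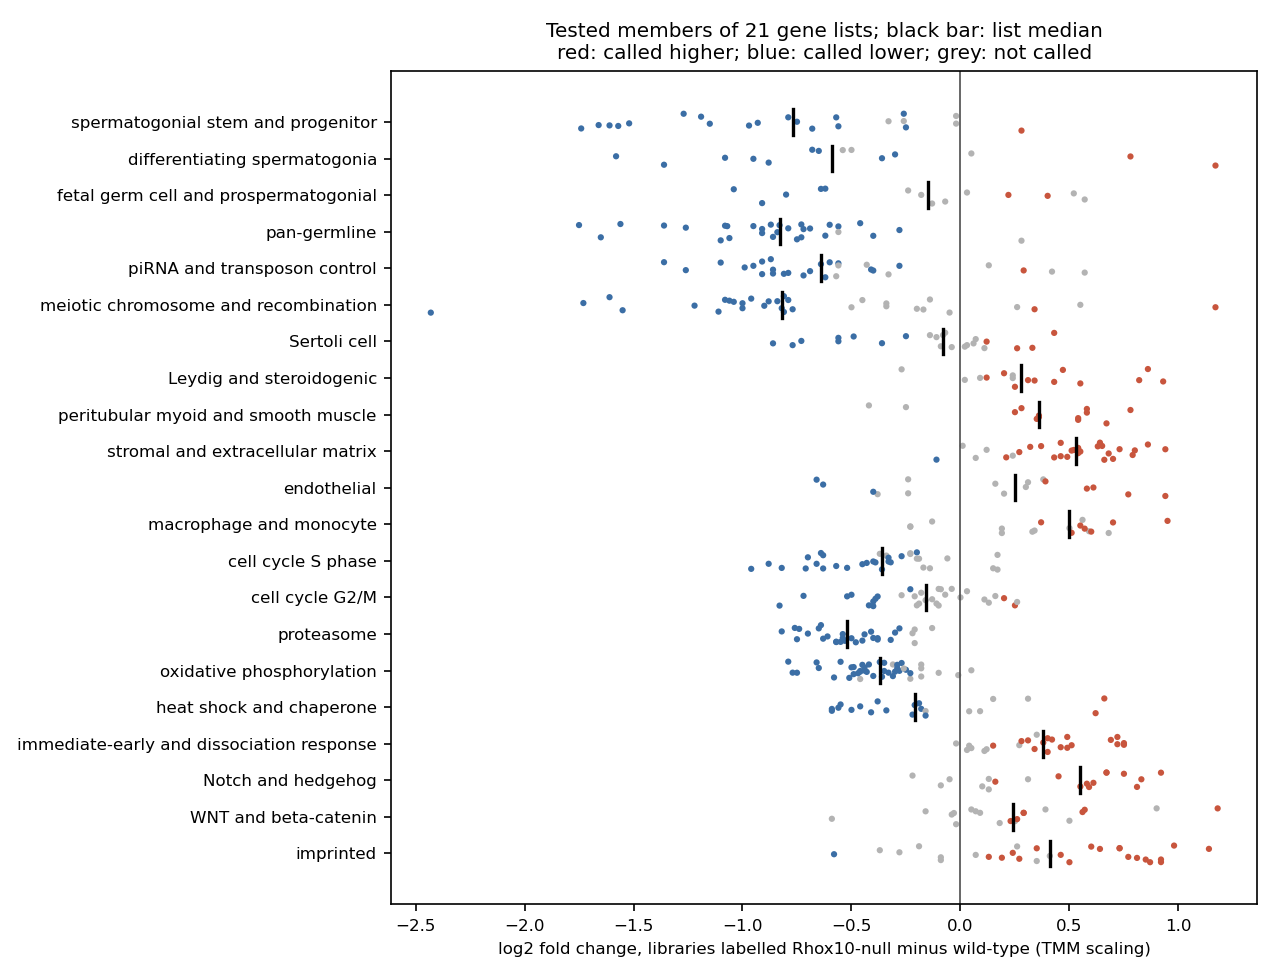
Log2 fold change of each tested member (points) and the median (black bar) of 21 lists, with called rises in red, called falls in blue and genes not called in grey. The 6 germline lists have negative medians, the Leydig, myoid, stromal, endothelial and macrophage lists positive ones, and the Sertoli list lies near 0.

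Some genes, in and outside the germline lists, fell by more than the germline RNA as a whole. With the pan-germline list as the scale, 69 genes were lower, 0.51% of those tested, while 90.7% were higher and the median gene stood at 0.90. All 69 were also lower with TMM, which the shift of 0.90 between the scales largely fixed in advance. Of the 69 genes, 33 were in no list and 8 were members of the pan-germline list, which itself sets this scale. The 69 also included 6 members of the stem and progenitor list, in which 8 others were higher on this scale, and 4 meiotic genes, against 10 others of that list that were higher. Among the spermatogonial markers, Zbtb16 (-0.76, edgeR adjusted p = 6.69e-08), Gfra1 (-0.67, adjusted p = 1.43e-08) and Ret (-0.62, adjusted p = 7.79e-10) were lower on this scale. Dmrt1, which also stands in the Sertoli list, was called higher (0.34, edgeR adjusted p = 9.33e-05), as most tested genes were, but lay below the median gene at 0.90. Bc1, a short noncoding RNA known from neurons and germ cells (chromosome 7, 144914470 to 144914637), stood at 45.1, 53.8, 51 and 47.2 CPM against 7.64, 3.71, 7.45 and 5.79 CPM. It was 7.85-fold lower with TMM (log2 fold change -2.97, SE 0.101) and still -2.08 on the germline scale. Erbb3, a receptor tyrosine kinase gene (chromosome 10, 128567523 to 128589652), was at 14.9, 13.7, 13.2 and 12.2 CPM against 4.59, 4.9, 4.69 and 2.29 CPM. Its log2 fold change was -1.69 with TMM and -0.79 on the germline scale. The polycomb gene Scml2 of the X chromosome, known from spermatogonia, was at 80.6, 86.1, 93.4 and 73.8 CPM against 33.2, 35.6, 36.5 and 35.9 CPM, with log2 fold changes of -1.24 and -0.34 on these 2 scales. The tubulin gene Tuba3a fell by 2.57 with TMM, but its reads are hard to separate from those of the near-identical Tuba3b.

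Among genes in no list with a mean of at least 10 CPM in the higher group, the 12 largest falls were Erbb3, the giant actin-binding protein gene Neb (-1.57), the gelatinase gene Mmp9 (-1.49), the actin-capping gene Capg (-1.28), Uchl1 (-1.23), Dock3 (-1.23), Nlrp4c (-1.23), Trim6 (-1.15), the ARP2/3 subunit gene Arpc3 (-1.14), Cdca7 (-1.10), Epb41l4b (-1.08) and the glucocorticoid-induced Tsc22d3 (-1.07). Uchl1 encodes a deubiquitinase abundant in spermatogonia and neurons. It stood at 27.7, 28.1, 28.3 and 29 CPM against 12.6, 11.5, 13.2 and 10.5 CPM, with no overlap. In 2 libraries of cultured germline stem cells of this series, untreated empty-vector cells with Rhox10 knocked down, these 12 genes ranged from 25.8 to 427.8 CPM, so all were detected there. That culture was read with a 3′ end kit, and its levels are not comparable in value with the sorted cells. Over all tested genes above 100 CPM in that culture, 38.5% fell and 13.8% rose, of those between 1 and 5 CPM 11% fell and 27.3% rose, and of those up to 0.1 CPM 26.4% fell and 20% rose.

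The somatic lists did not move as one. Sertoli genes, whose summed level per kb was the highest of the cell type lists examined, had 8 of 23 tested members lower and 4 higher. Their median was -0.08, which became 0.01 with the length offset, 0.26 with library totals and 0.81 under the germline scaling. Without both replicates 4, 7 fell and 2 rose. The list summed to 452.6 to 473.9 CPM per kb in the wild-type group and to 445.8 to 456.7 in the group labelled Rhox10-null. Within the list the members parted. Amh (chromosome 10, 80805243 to 80807648) rose from 125.7, 142.5, 143.2 and 143.8 CPM to 177.1, 189.2, 196.9 and 185.4 CPM (log2 fold change 0.43, SE 0.0484, edgeR adjusted p = 1.34e-09). Aard, a small gene expressed in Sertoli cells (chromosome 15, 52040107 to 52045722), fell from 53.8, 51.8, 48.8 and 49.1 CPM to 27.5, 29.4, 28.8 and 26.8 CPM (log2 fold change -0.86, SE 0.0611, edgeR adjusted p = 3.36e-15), and was at 0.04 under the germline scaling. Neither gene's groups overlapped. The tight junction gene Cldn11 (-0.73), the defensin gene Defb36 (-0.77), the cystatin gene Cst12 (-0.56) with its relative Cst9 (-0.25), the homeobox gene Rhox8 (-0.49) and the KIT ligand gene Kitl (-0.36) fell with Aard, as did Dmrt1, which germ cells also express. The steroid enzyme gene Hsd17b1 (0.26), the actin-bundling gene Espn (0.33) and Inha (0.12) rose with Amh. Calls were lost for Defb36 without wild-type replicate 1 (-0.62), for Cst9 without Rhox10-null replicate 2 or wild-type replicate 4, for Hsd17b1 without Rhox10-null replicate 2 or wild-type replicate 1 or 4, and for Inha without any of 6 libraries (all but Rhox10-null replicate 3 and wild-type replicate 2). The Sertoli identity genes Sox9 (-0.11), Wt1 (0.11), Gata4 (0.03), Dhh (-0.09) and Fshr (-0.07) were not called.

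Interstitial and stromal genes were higher. Of 30 tested stromal and extracellular matrix genes, 25 rose and 1, Sparc, fell (-0.11), with a median of 0.53. The summed level went from 253.6 to 267 CPM per kb (wild-type) to 334.4 to 347.1 in those labelled Rhox10-null. Sparc had the highest CPM of the list over all 8 libraries, although Col1a2 exceeded it in the libraries labelled Rhox10-null. It was not called with the length offset (-0.09), without both replicates 4 (-0.10), or without replicate 1, 2 or 4 of the Rhox10-null group or replicate 2 or 4 of the wild-type group, and was at 0.24 with library totals and 0.79 under the germline scaling. Col1a2, a chain of type I collagen (chromosome 6, 4504814 to 4541544), stood at 123, 131.2, 121.5 and 133.5 CPM against 213.6, 215.5, 230.7 and 219.6 CPM. Its groups were far apart (log2 fold change 0.79, SE 0.0465, edgeR adjusted p = 6.13e-18). Pdgfra, the PDGF receptor gene of stromal and Leydig lineage cells (chromosome 5, 75152292 to 75198215), stood at 42.3, 48.3, 44.9 and 43.1 CPM against 81.6, 78.3, 83.3 and 80.6 CPM, a 1.81-fold rise. Elastin (Eln, 0.94), Col6a1 (0.80), Col15a1 (0.73) and the nuclear receptor gene Nr2f2 (0.65) rose as well, whereas Vim (0.07) and Postn (0.01) were not called.

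Leydig and steroidogenic genes had 11 of 16 tested members higher and 0 lower (median 0.28), and peritubular myoid genes 11 of 13 higher and 0 lower (median 0.36). Among the first, the cholesterol side-chain cleavage enzyme gene Cyp11a1 (0.82) and the steroid dehydrogenase gene Hsd3b1 (0.55) rose. Among the second, Des (0.78), Tpm2 (0.67), Myh11 (0.58) and Acta2 (0.36), all of the contractile apparatus or its filaments, rose. Flna, an actin cross-linker, was the most abundant myoid-list gene, at 127.8, 129.6, 139.2 and 132.8 CPM against 190.5, 185.5, 198.5 and 193 CPM. Both lists share members with others: Pdgfra also stands in the stromal list, Inha and Nr5a1 in the Sertoli list and Ptch1 in the hedgehog list.

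Vessels and macrophages were weakly represented. Endothelial genes summed to at most 23.4 CPM per kb in any library and went both ways. Of 16 tested, Tie1 (0.94), Tek (0.77), Cd34 (0.61), Cdh5 (0.58) and Pecam1 (0.39) rose, while Erg (-0.66), Ramp2 (-0.63) and Sox18 (-0.40) fell. Only Tek, Cd34 and Cdh5 of these kept their call without each library. The others lost it without Rhox10-null replicate 3 (Erg, Ramp2, Sox18 and Pecam1), 1 (Pecam1), 2 (Tie1) or 4 (Ramp2), or without wild-type replicate 1 (Tie1 and Pecam1), 2 (Sox18), 3 (Ramp2 and Pecam1) or 4 (Tie1 and Ramp2). Of 18 tested macrophage genes 7 rose and 0 fell (median 0.50), among them the class II gene H2-Ab1 (0.95) and the cathepsin gene Ctss (0.70), both not called without wild-type replicate 3 (0.82 and 0.55), and the lysosomal gene Cd68 (0.55). C1qa (0.60), Laptm5 (0.57), Cx3cr1 (0.51) and Lyz2 (0.37) rose too, but each lost its call without at least 1 library. DESeq2 called none of these, nor H2-Ab1 or Ctss, whereas Cd68 kept its call in both checks. The macrophage receptor gene Csf1r (0.19) and Adgre1 (0.34) were not called. Of 27 genes of lymphocytes, mast cells, granulocytes and platelets only 2 were tested. Of 17 tested erythroid genes 14 rose and 1, Bnip3l, fell (-0.27). Beyond the globins, the red cell membrane genes Slc4a1 and Kel had 0 counts in all 4 wild-type libraries and were at least 23.8-fold and at least 6.49-fold higher in those labelled Rhox10-null, against a floor of 3 counts per library. Alas2 had 0 to 13 counts in wild-type libraries against 22 to 35. Genes with so few wild-type counts passed the low-count filter only through the libraries labelled Rhox10-null. They could come out only as rises, so the count of 14 was partly set by the filter. The summed erythroid level rose from 20.3 to 23 CPM per kb to 115.2 to 123.1, still below that of the Sertoli and stromal lists.

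**Figure D3:**
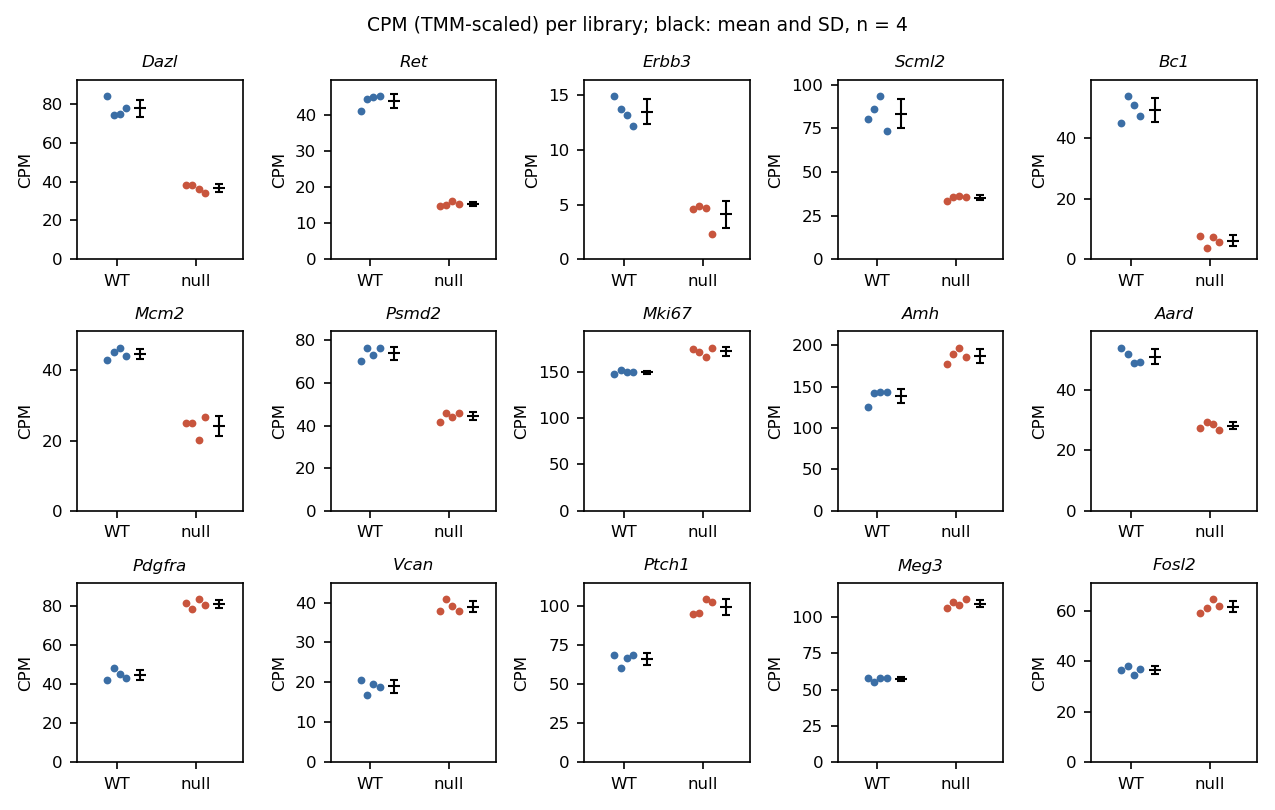
CPM of 15 genes in each library on linear axes from 0, with the mean and SD of 4 libraries in black. Dazl, Ret, Erbb3, Scml2, Bc1, Mcm2, Psmd2 and Aard are lower and Mki67, Amh, Pdgfra, Vcan, Ptch1, Meg3 and Fosl2 higher in the libraries labelled Rhox10-null, without overlap.

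Among genes in no list with a mean of at least 10 CPM in the higher group, the 12 largest rises were the complement protease gene C1rb (1.77), Col6a4 (1.15), the proteoglycan gene Vcan (1.03), AC149090.1 (1.03), the guidance ligand gene Slit2 (1.00) with the receptor gene Robo2 (0.90), the lysosomal gene Cln3 (1.00), Emp1 (0.99), Emilin1 (0.97), Col23a1 (0.95), Dnm3os (0.91) and Pknox2 (0.90). Vcan (chromosome 13, 89655312 to 89742509) stood at 20.6, 16.9, 19.7 and 18.9 CPM against 37.9, 40.8, 39.1 and 37.8 CPM. Slit2 stood at 14.1, 15.2, 12.9 and 14.7 CPM against 29.4, 30.9, 26.2 and 27.5 CPM. Neither overlapped between the groups. Dnm3os lies antisense within Dnm3, and the strand setting of the counting is not given in the sources used here, so its reads may be shared.

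Notch and hedgehog genes were higher. Of 19 tested genes of these pathways 12 rose and 0 fell, with a median of 0.55, and 11 rose and 2 fell with the length offset. The hedgehog receptor and target gene Ptch1 (chromosome 13, 63508328 to 63573598) stood at 69, 60.7, 66.6 and 68.8 CPM against 94.7, 95.5, 104.4 and 102.8 CPM (log2 fold change 0.58, SE 0.053, edgeR adjusted p = 4.92e-12). The groups did not overlap. The pathway's transcription factor genes Gli1 (0.92) and Gli2 (0.81), its antagonist gene Hhip (0.55), the Notch target genes Hes1 (0.83) and Heyl (0.75) and the receptor gene Notch3 (0.67) rose, whereas the ligand gene Dhh of Sertoli cells (-0.09) and Gli3 (-0.22) were not called. Of 20 tested WNT genes 7 rose and 0 fell (median 0.24), with Wnt4 (1.18) highest, and with the length offset 3 rose and 1 fell. In the BMP, TGF-beta and activin list 7 of 28 tested rose and 2 fell, with rises of Tgfb2 (0.84) and the activin subunit gene Inhba (0.74) and falls of Id4 (-0.93), a stem cell regulator, and Bmpr1a (-0.17), the latter not called without Rhox10-null replicate 1 or 2 or wild-type replicate 4. All 7 tested Hox genes rose (median 0.86), of which 4 were called without both replicates 4. Their levels were low: Hoxd9 had 2.11 to 4.07 CPM (wild-type) and 4.24 to 6.19 CPM (labelled Rhox10-null). Stromal marker levels moved with these genes, and their part in the rises was not tested.

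Retinoic acid genes went both ways. Of 15 tested, 5 fell, among them Crabp1 (-1.58), Stra8 (-1.36), the retinol uptake receptor gene Stra6 (-0.69) and Rara (-0.23), and 2 rose, the retinoic acid-degrading enzyme gene Cyp26b1 (0.45) and the synthesis enzyme gene Aldh1a1 (0.24). Without both replicates 4, 2 of the list rose and 3 fell. Rara was not called without Rhox10-null replicate 1 or 4 or wild-type replicate 3. Cyp26b1 stood at 19.6, 18.6, 18.5 and 14.8 CPM against 23.6, 24.2, 24.6 and 24.4 CPM. Its highest wild-type library was below its lowest other library. Adhesion genes were divided: Epcam (-1.09), Cd9 (-0.94), Mcam (-0.80), Cdh1 (-0.79) and Tjp1 (-0.57) fell, while Icam1 (1.06), Cdh11 (0.82) and Ncam1 (0.80) were among those that rose. In that list 8 of 22 tested were higher and 5 lower.

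Genes of DNA replication were lower. Of 33 tested S phase genes 21 fell and 0 rose, with a median of -0.36, which was -0.01 with library totals and 0.54 under the germline scaling. Mcm2, of the replicative helicase (chromosome 6, 88883474 to 88898780), stood at 42.9, 45.1, 46.4 and 44.1 CPM against 25, 24.9, 20.2 and 26.8 CPM (log2 fold change -0.88, SE 0.0689, edgeR adjusted p = 5.03e-14, and 0.02 under the germline scaling). The other helicase subunit genes Mcm3 (-0.71), Mcm5 (-0.64), Mcm6 (-0.57), Mcm7 (-0.43) and Mcm4 (-0.36) fell too. Mitotic genes did so less: 10 of 31 tested fell and 2 rose (median -0.16, 0.19 with library totals and 0.74 under the germline scaling). Kif20a (-0.83) and Ccnb1 (-0.72) fell, Ect2 (0.25) rose, and the proliferation antigen gene Mki67 rose from 147.4, 151.7, 149.2 and 149.2 CPM to 174.5, 171.1, 165.7 and 175.6 CPM (log2 fold change 0.20, edgeR adjusted p = 0.000356). Mki67 was not called with the length offset (0.07, adjusted p = 0.179). Among D cyclins and cell cycle inhibitors, Ccnd1 (-1.06) and Cdkn2a (-1.23) fell and Cdkn1c (0.98), an imprinted inhibitor, rose. The difference between the S phase and mitotic lists was not tested.

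Housekeeping machinery fell with the germline lists. Of 30 proteasome subunit genes 26 fell and 0 rose (median -0.52, -0.17 with library totals, 0.38 under the germline scaling). Psmd2 (chromosome 16, 20651652 to 20663414) stood at 70.1, 76.2, 73.2 and 76.5 CPM against 41.9, 45.7, 44 and 46 CPM. Of 43 tested nuclear-encoded oxidative phosphorylation genes 33 fell (median -0.37, -0.02 with library totals, 0.53 under the germline scaling). In a family of 13 mitochondrially encoded genes 5 rose and 0 fell (median 0.08), and 13 rose with the length offset. This family summed to only 7877 to 8517 CPM (wild-type) and 8428 to 9021 CPM (labelled Rhox10-null). Most of the mitochondrial share given above, taken over all mitochondrial genes, thus lay outside it. Of all 15 tested genes of the mitochondrial chromosome 7 rose and 0 fell. Cytosolic ribosomal protein genes had 73 of 89 tested lower and 0 higher (median -0.29, 0.06 with library totals, 0.61 under the germline scaling). Replication-dependent histone genes had 58 of 63 tested lower (median -0.62, 0.28 under the germline scaling), among them Hist1h1a, at 49.6, 48.5, 51.5 and 46 CPM against 23.2, 25, 21 and 21.5 CPM. Histone and ribosomal protein genes have near-identical copies, so values of single members are uncertain. Heat shock genes had 14 of 21 lower and 2 higher (median -0.21, 0.14 with library totals, 0.69 under the germline scaling), with Hsp90aa1 (-0.46) falling and Hspa1b (0.66) rising.

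Ribosomal protein, histone and oxidative phosphorylation genes are short, and the direction of change followed exon length across the transcriptome. In the shortest octile of protein-coding genes, 204 to 2195 bases, 32.8% fell and 5.62% rose, and in the longest, 9709 to 123179 bases, 7.8% fell and 40.6% rose. With a length trend in each library taken out as an offset, the falls went from 33 to 16 for oxidative phosphorylation and from 73 to 42 for ribosomal proteins, where 3 then rose. Proteasome falls went from 26 to 22 and histone falls from 58 to 50, and the stem cell list had 18. Gene classes differed as well. All 32 tested snRNA genes, near-identical copies of few sequences, fell and 240 of 717 processed pseudogenes fell against 9 that rose, while 202 of 465 transcripts of the provisional class TEC rose and 1 fell. RNA integrity values are not given in the sources used here, and the part of RNA quality in these differences was not tested.

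**Figure D4:**
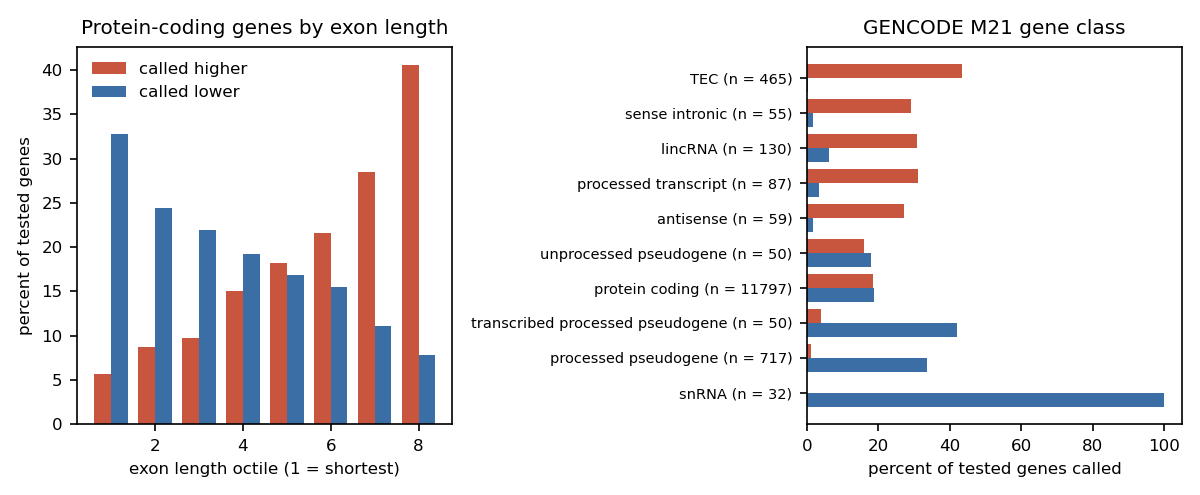
Left, the percent of tested protein-coding genes called higher (red) or lower (blue) in each octile of exon length; right, the same for GENCODE M21 gene classes with at least 30 tested genes. Falls decline from 32.8% to 7.8% and rises climb from 5.62% to 40.6% from the shortest to the longest octile.

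Imprinted genes were higher. Of 29 tested imprinted genes, expressed from one parental copy, 19 rose and 1, Sfmbt2, fell (-0.58, or 0.32 under the germline scaling), with a median of 0.41. With the length offset 15 rose and 2 fell (median 0.36). Meg3 (chromosome 12, 109541001 to 109571726) stood at 58.1, 55.1, 58.1 and 58.2 CPM against 105.9, 110.1, 108.1 and 112 CPM, a 1.9-fold rise (log2 fold change 0.92, SE 0.0504, edgeR adjusted p = 3.48e-19). Rian (0.92) and Mirg (1.14) of the same maternally expressed cluster rose alongside, as did the growth regulators Peg3 (0.85), Grb10 (0.73) and Plagl1 (0.60), whereas Igf2 (-0.28) and Peg10 (-0.09) were not called. Kcnq1ot1 also rose (0.73, and 0.33 with the length offset), but it runs antisense to Kcnq1. The paraspeckle and speckle RNAs Neat1 (0.52) and Malat1 (0.49) rose. The list of nuclear-retained and structured noncoding RNAs that holds them went both ways, with 10 of 26 tested higher and 6 lower (median -0.01, 0.33 with library totals and 0.88 under the germline scaling). Of 39 tested splicing regulator genes 27 rose and 4 fell (median 0.17), with 14 and 5 under the length offset. Clk1, a kinase that phosphorylates SR proteins, was at 51.4, 49.4, 44.2 and 48.6 CPM against 74.3, 67.8, 79.1 and 74.9 CPM.

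Genes induced by cell dissociation and acute stimulation rose in part. Of 25 tested immediate-early genes 17 rose and 0 fell (median 0.38), and the list was at high levels in both groups, with summed values of 490 to 516.9 and 611.5 to 618.7 CPM per kb. The AP-1 gene Fosl2 (chromosome 5, 32135801 to 32157842) stood at 36.7, 38.2, 34.6 and 36.8 CPM against 59, 61.1, 64.5 and 62 CPM. Klf2 (0.75), Zfp36 (0.69) and Socs3 (0.72) rose by similar amounts, and Dusp1 (0.12) and Ier2 (0.03) were not called. Of 26 tested p53 target and apoptosis genes 11 rose and 3 fell: Eda2r (1.16), Zmat3 (0.83) and Rrm2b (0.76) rose, Trp53inp1 (-0.50), Bax (-0.43) and Mdm2 (-0.27) fell, and Cdkn1a (-0.11) was not called. Without both replicates 4, 7 rose and 2 fell. Among the settings that left out 1 library, Bax kept its call only without Rhox10-null replicate 1.

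**Figure D5:**
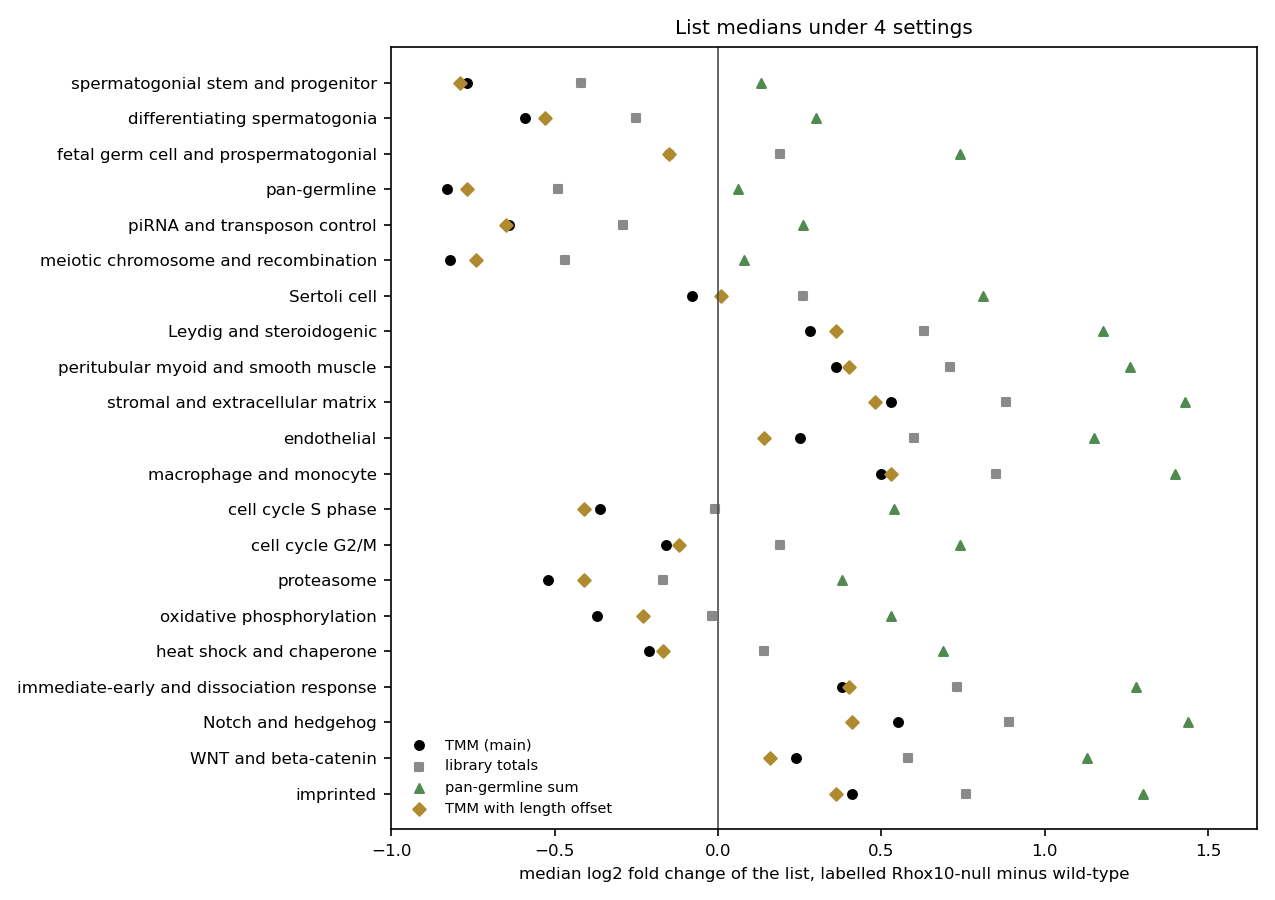
Median log2 fold change of 21 lists under TMM, library totals, the pan-germline sum and TMM with a length offset. All 21 medians lie above 0 under the pan-germline sum, from 0.06 for the pan-germline list to 1.44 for Notch and hedgehog genes.

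Epigenetic regulators were divided. Of 33 tested polycomb, trithorax and chromatin genes 11 fell and 7 rose, a split that depended on the scaling. With library totals 1 fell and 20 rose (median 0.21, against -0.14 with TMM), under the germline scaling 1 fell and 31 rose (median 0.76), and with the length offset 15 fell and 4 rose. With TMM, Scml2 (-1.24), Pcgf6 (-0.60), Cbx2 (-0.54) and Bmi1 (-0.47) fell, and Kdm6a (0.36) and the H3K9 methyltransferase gene Ehmt2 (0.36) rose. Of 16 tested DNA methylation genes, the de novo gene Dnmt3b (-0.68) and the maintenance genes Uhrf1 (-0.65) and Dnmt1 (-0.49) fell. The 6 that rose included Tet2 (0.55), Tet1 (0.43) and Tet3 (0.32), the oxidases that initiate demethylation. The other de novo gene, Dnmt3a (0.27), also rose, so the genes that place methylation went both ways. Tet2 stood at 19, 19.9, 16.3 and 18.5 CPM against 27.4, 28.5, 27.4 and 24.9 CPM. Uhrf1 stood at 50.2, 52, 46.8 and 50.5 CPM against 29.8, 28.7, 35.2 and 33.5 CPM. Neither overlapped between the groups, and Uhrf1 was at 0.25 under the germline scaling. With the length offset 2 genes of the list rose and 3 fell, and Tet1 (0.24), Tet3 (0.11) and Dnmt3a (0.06) were not called.

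The deposited RHOX10 CUT&Tag peaks of cultured cells were set beside the named genes. Of the 131 named genes, 25 had a peak annotated by the authors within 3 kb of a start site, against 27.6% of all tested genes. Peaks stood near Smc1b, Erbb3, Aard, Kit, Slit2 and Fosl2, and none was annotated within that distance for Dazl, Scml2, Bc1, Ret, Pdgfra or Meg3.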

How the data were processed

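The deposited RNA-seq table holds raw counts of reads per gene made by the authors, with a column for each sample, per the file headers. The submitters' processing notes name the GRCm38 build, STAR 2.5.2b, Subread, featureCounts and DESeq2 for these samples. The strand setting of the counting is not given in the sources used here. Peak scores and other peak annotations were deposited by the authors, per the file headers, and only the distance to a start site was used. All 55536 gene identifiers matched GENCODE M21, and 0 sample columns were left unmapped.

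Counts were tested in edgeR 4.0.16 (R 4.3.3, limma 3.58.1): TMM, filterByExpr, glmQLFit and glmQLFTest on genotype alone, Benjamini-Hochberg adjustment over 13538 genes, threshold 0.05. SE is the absolute log2 fold change over the square root of F. CPM per kb divides by merged exon length. Alternatives were DESeq2 1.42.0, its size factors, library totals, the pan-germline scale, other filters, removal of dominant genes, a fold threshold of 1 (log2), a replicate block and left-out libraries; the length offset was added after seeing the data. On simulated counts of 13305 genes the fit found 94 of 100 genes changed by 1 and 100 of 100 changed by 2 (log2), with 18 false calls.

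The 45 gene lists and 23 families defined by symbol prefix were chosen with earlier results of these data known. Symbol prefixes catch some genes of other function, such as Kcnq1ot1 among channels and Slx4 among the Slx genes. Named genes were Rhox10; Zbtb16, Gfra1, Ret and Dmrt1; the rise and the fall of smallest p of each list or family, without overlap and with at least 5 CPM; the 12 largest rises and 12 largest falls outside the lists with at least 10 CPM; and the most abundant member of each somatic list. Further list members named to describe a list were chosen after their values were seen. A gene among the list members is not reported here.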

Additional observations from a re-analysis of the deposited data

Results flagged for a closer look

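In 18 of 260 groups of 4 libraries one library lay apart from the other 3, its gap to the nearest as a share of the range being above Dixon's critical value for 4. Chance gives about 13, and 6 of the 18 were replicates 4. In the libraries labelled Rhox10-null, replicate 4 was lowest for Erbb3 (gap 0.88), Kit (0.838) and Mcam (0.893) and highest for Ero1l (0.832). Replicate 3 was highest for Bnip3l (0.877) and Emilin1 (0.871), replicate 2 lowest for Mageb4 (0.845), and replicate 1 lowest for Robo2 (0.869) and highest for Tsc22d3 (0.832). In the wild-type libraries, replicate 1 was lowest for Amh (0.927) and Ret (0.841) and highest for Tfrc (0.87). Replicate 2 was lowest for Meg3 (0.954) and highest for C1rb (0.864) and Pcdh1 (0.891), replicate 3 lowest for Rhox8 (0.864), and replicate 4 lowest for Mir99ahg (0.936) and highest for Cdkn1c (0.844). In the Amh case replicate 1 had 125.7 CPM against 142.5 to 143.8 CPM in the other wild-type libraries.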

How the results depend on the processing

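Among the 130 tested named genes, 0 reversed with DESeq2, its size factors, other filters, the length offset, a replicate block or a left-out library. Counts called, higher and lower were 7858, 7229 and 629 with library totals, 12342, 12273 and 69 under the pan-germline scale, and 446, 260 and 186 when a log2 change of 1 or more in size was also required, which removes genes by construction. DESeq2 called 1563 higher and 1828 lower; the cause was not tested. Leaving out each library gave 4468 to 4687 calls, 2124 to 2332 higher and 2291 to 2415 lower. Leaving out both replicates 4 gave 1993 and 2068. Removing the genes above 1% of a library, Gm42418 among them, gave 2473 higher and 2566 lower. Of these 5039 calls 5011 were shared with the main fit, all with the same sign. The replicate numbers did not pair the libraries (correlations of 0.022, -0.011, 0.007 and -0.019), and with the replicate block 2500 genes were higher and 2566 lower. With library totals Bnip3l (0.08), Clu (0.26), Hdac2 (0.11) and Sparc (0.24) reversed. Under the pan-germline scale 35 reversed, because that scale moves the median gene by 0.90: Aard and Tex15 (0.04), Kit and Mcm2 (0.02), Kif20a (0.06), Nefm (0.08), Mcam (0.10), Mrpl12 (0.13), Cox4i1 (0.15), Psmd2 (0.16), Prdx1 and Stra6 (0.21), Mir6236 (0.22), Pcdh1 (0.23), Zfp217 (0.24), 2900026A02Rik and Uhrf1 (0.25), Ero1l (0.26), Cited2 (0.28), Dnah8 (0.30), Sfmbt2 (0.32), Dmrt1 (0.34), Gm42418 and Srsf9 (0.39), Insig1 and Trp53inp1 (0.40), Rhox8 (0.41), Scarna6 (0.42), Hsp90aa1 (0.44), Gpi1 (0.46), Sox18 (0.50), Bnip3l (0.63), Hdac2 (0.66), Sparc (0.79) and Clu (0.81). Depth limits genes of few counts, since 1379870 to 2128523 counts per library were left outside the dominant genes.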

Other observations

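Membrane and protease families beyond the lists of testis cell types also leaned to rises. Of 29 tested protocadherin genes 17 rose and 1, Pcdh1, fell, with a median log2 fold change of 0.67, and Pcdh18 went from 3.91 to 6.78 CPM in wild-type libraries to 7.81 to 10 CPM in those labelled Rhox10-null. Of 28 tested ADAM and ADAMTS protease genes 16 rose and 0 fell (median 0.45), with Adamts5 at 26.6 to 28.1 CPM against 40.7 to 44.9 CPM. Of 59 tested potassium, sodium and calcium channel genes 25 rose and 2 fell (median 0.39). Rises were more frequent among long genes, and the median exon length was 7331 bases in both the protease and the channel family. With the length offset 12 protocadherin genes rose and 1 fell (median 0.60), 14 protease genes rose and 0 fell (0.42), and 21 channel genes rose and 3 fell (0.25). Melanoma antigen genes, many of them germline genes of the X chromosome, had 5 of 8 tested lower and 1 higher (median -0.78, or 0.11 under the germline scaling), with 3 lower and 1 higher both with the length offset and without both replicates 4, and Mageb4 went from 21.7 to 23.9 CPM to 5.16 to 9.72 CPM.

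By chromosome, the X had 16.1% of 516 tested genes higher and 21.1% lower, against 18.7% and 18.7% of autosomal genes. Of 19 tested genes of the Y chromosome 10 fell and 3 rose. Usp9y, a deubiquitinase gene expressed in spermatogonia, stood at 9.78, 9.82, 10.5 and 9.23 CPM against 3.49, 4.77, 3.72 and 4.44 CPM, while Ddx3y (0.20) and Kdm5d (0.22), expressed in many tissues, were not called. Gm10800, a predicted gene, went from 0 to 1.69 CPM in wild-type libraries to 13.1 to 18.7 CPM in those labelled Rhox10-null. With so few wild-type counts, Gm10800 passed the low-count filter only through the libraries labelled Rhox10-null and could come out only as a rise.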
